A study of Arabidopsis thaliana with 30 samples.

Results

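Touch-responsive calmodulin-like genes are 6 loci of Arabidopsis thaliana that encode calcium-binding relatives of calmodulin. They are TCH3 (also CML12, AT2G41100), CML24 (also TCH2, AT5G37770), CML23 (AT1G66400), CML37 (AT5G42380), CML38 (AT1G76650) and CML39 (AT1G76640). The 6 genes were chosen by name, with earlier results of these libraries against Col-0 known, from the 32548 genes of the deposited table. Their levels against Col-0 are therefore a description with no test. Differences between mutants, which set no library against Col-0, were tested with limma on log2(value + 1), and a gene is called where its p, adjusted over all tested genes by Benjamini-Hochberg, is below 0.05. The mutant libraries in these tests also entered the earlier results, so for the 6 genes the tests are not independent of the choice.

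Calcium enters the cytosol of plant cells within moments of touch, wind, wounding or cold, and proteins with EF-hand loops bind it. Calmodulins are the common EF-hand sensors, and calmodulin-like proteins are their plant relatives, with other numbers of loops and other partners. The TCH genes were found in Arabidopsis as transcripts that accumulate soon after plants are touched or sprayed, and their mRNA level is widely used as a readout of mechanical and calcium signals. GCN5, the histone acetyltransferase that this series is about, works in protein complexes with adaptor subunits such as ADA2A and ADA2B.

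Messenger RNA of whole seedlings was sequenced in 30 libraries, 3 for each of 10 genotypes. The single mutants were ada2a, spc, ing1, sdrl, eaf6, ada2b and gcn5, each labelled as homozygous for the gene in its name, and the double mutants ada2aspc (ada2a-/-spc-/-) and spcing1 (spc-/-ing1-/-). Col-0 is the wild type. Plants of all genotypes were 12 days old and grew untreated on MS medium plates at 22 °C with 16 h of light and 8 h of dark. The labels give no allele, no hour of harvest and no separate growths, so SDs and p-values cover library-to-library spread alone, part of which may be technical. In bulk seedlings, fewer cells of a type and less RNA per cell cannot be told apart. The values are a normalised signal per gene, on which column totals lay between 30914000 and 41548748. ADA2A was at 2.50% of its Col-0 level in ada2a and 1.09% in ada2aspc. ING1 was at 22.5% in ing1 and 20.6% in spcing1, EAF6 at 14.3% in eaf6, GCN5 at 49.2% in gcn5 and ADA2B at 72.3% in ada2b. The genes mutated in spc and sdrl were not analysed here. All 5 shoot and all 7 root marker genes were detected in all groups.

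The number of EF-hand loops differs among the 6 genes. The first loop found in each coding sequence is printed with that of the calmodulin gene CAM2, from the TAIR10.1 RefSeq genome and 5′ to 3′ on the coding strand. Capitals mark the first, the third, the fifth and the last codon, whose amino acids contact calcium in a canonical loop.
TCH3: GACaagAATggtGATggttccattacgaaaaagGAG
CML24: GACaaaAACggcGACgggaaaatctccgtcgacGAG
CML23: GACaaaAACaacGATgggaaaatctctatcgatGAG
CML37: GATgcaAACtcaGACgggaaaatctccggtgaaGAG
CML38: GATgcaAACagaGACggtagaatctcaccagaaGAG
CML39: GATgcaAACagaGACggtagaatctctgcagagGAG
CAM2: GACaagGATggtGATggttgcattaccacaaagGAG
A search for such loops found 6 in TCH3, 4 in CML24 and CML23, and 3 in CML37, CML38 and CML39, against 4 in each of the 7 calmodulins. TCH3 has 324 codons, and the other 5 genes have 157 to 185, against 149 in each calmodulin. The first and the fifth codon are GAC or GAT and the last is GAG in all 7 printed loops. The third is AAT or AAC in the 6 calmodulin-like genes, against GAT in CAM2. The loops lie at chr2:17138191-17138326 (plus strand) for TCH3, chr5:14999450-14999485 (minus) for CML24, chr1:24771225-24771260 (minus) for CML23 and chr5:16943109-16943144 (minus) for CML37. Those of CML38, CML39 and CAM2 lie at chr1:28767254-28767289 (minus), chr1:28765678-28765713 (minus) and chr2:17140439-17140838 (plus). In TCH3 and CAM2 an intron interrupts this loop, so its 36 bases span 136 and 400 bases of genome.

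The closest pair in coding sequence were the neighbours CML38 and CML39, with 83.4% identical bases and a longest shared run of 34 bases. CML24 and CML23 were 81.2% identical, with a longest shared run of 21 bases. TCH3 was 79.8% identical to CAM2 over 450 aligned bases, and its longest shared run with any calmodulin was 25 bases, with CAM7. These runs are shorter than the 150 bases of a read, but how the authors counted reads that fit several genes is not given in the sources used here.

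TCH3 (TAIR10.1 chromosome 2, 17137037 to 17139700, plus strand, 7 annotated transcripts of 2 to 5 exons) encodes the member with the most EF-hand loops. It stood at a near-common high level in 7 of the 9 mutants. Its 3 libraries read 8216, 8899.9 and 10414 in ada2a, 8270, 8592 and 8287 in spc, 8019, 8249.9 and 8242 in ing1, and 10283, 10271 and 10460.1 in sdrl. They read 8326, 7608 and 8516 in eaf6, 9361, 10557 and 7249 in ada2aspc, and 10455, 11659 and 10979.9 in spcing1. In ada2b it read 1122, 1374 and 1825 and in gcn5 1009, 1063 and 1041, against 348, 520.5 and 474 in Col-0. All 27 mutant libraries thus lay above all 3 of Col-0, and the 7 high genotypes lay well clear of gcn5 and ada2b. As ratios of mean levels to Col-0, these were 18.2 to 24.7 in the 7 high genotypes, 3.22 in ada2b and 2.32 in gcn5. In the order of means, spcing1, sdrl, ada2a and ada2aspc each overlapped the next, down to spc, and ing1 overlapped eaf6. The steps from spc to ing1 and all those below eaf6 were separate.

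CML38 (chromosome 1, 28766750 to 28768138, minus strand, 1 to 2 exons), known in Arabidopsis for its induction by low oxygen and its place in stress granules, separated the mutants more finely. Its libraries read 1816, 2059 and 2454 in ada2a and 2341, 2488 and 2759 in spc. They read 1009, 1172 and 1153 in ing1, 981, 1112 and 1063 in sdrl, 1037, 1063 and 1267 in eaf6, 959, 1145 and 1196 in spcing1, and 623, 843 and 518 in ada2aspc. In gcn5 they read 141, 158 and 86.5 and in ada2b 169, 174 and 186, against 201, 153 and 179 in Col-0. CML38 therefore formed 4 levels: ada2a and spc highest, 4 genotypes between 959 and 1267, ada2aspc below those, and gcn5 and ada2b overlapping Col-0. The ratios to the Col-0 mean were 14.2 in spc, 11.9 in ada2a, 5.92 to 6.31 in the 4 middle genotypes, 3.72 in ada2aspc, 0.993 in ada2b and 0.722 in gcn5. The steps between neighbours that did not overlap were ada2a over eaf6, sdrl over ada2aspc, ada2aspc over Col-0 and ada2b over gcn5.

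CML24 (chromosome 5, 14997514 to 14999619, minus strand, 1 to 2 exons), a touch-induced sensor known in Arabidopsis for roles in ion responses and flowering, had its highest levels in the same 2 mutants. Its libraries read 3472, 3822 and 3782 in ada2a, 4114, 3669 and 3979 in spc, 2497, 2525 and 2528 in ing1, and 2481, 2253 and 2444 in sdrl. They read 2090, 2304 and 2724 in eaf6, 2191, 2752 and 2966 in spcing1, and 1509, 2061 and 1133 in ada2aspc. The remaining libraries read 833, 944 and 502 in gcn5 and 1259, 1148 and 2517 in ada2b, against 531, 512 and 440.4 in Col-0. All mutants but gcn5 lay wholly above Col-0, and in gcn5 1 library fell inside the Col-0 range. The mean in gcn5 was 1.54 times that of Col-0, against 3.17 in ada2aspc, 3.32 in ada2b, 4.80 to 5.33 in 4 genotypes, 7.46 in ada2a and 7.93 in spc. In the order of means, ada2a over spcing1, ing1 over sdrl and ada2aspc over gcn5 were separate, and the other neighbours overlapped.

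CML37 (chromosome 5, 16942447 to 16943820, minus strand, 1 exon), a wound-induced gene that promotes defence against herbivores in Arabidopsis, was low in most libraries. It read 227, 244 and 256 in ada2a and 193, 115 and 183 in spc. It read 34.2, 44.3 and 37.6 in ing1, 28.3, 36.5 and 33.6 in sdrl, 48.2, 67.9 and 53.0 in eaf6, 26.4, 17.7 and 15.9 in ada2aspc, and 17.6, 13.9 and 30.5 in spcing1. It read 45.1, 40.8 and 8.61 in gcn5 and 43.1, 33.0 and 77.8 in ada2b, against 5.43, 4.68 and 33.2 in Col-0. The third Col-0 library stands apart from the other 2 and overlaps most mutants, so only ada2a, spc, ing1 and eaf6 lay wholly above Col-0. On the log2(value + 1) scale the differences from Col-0 were 4.49 in ada2a and 3.90 in spc, and 5.33 and 4.73 without that Col-0 library. In ada2aspc and spcing1 both were 0.93, and 1.77 without it. Among neighbours in the order of means, only ada2a over spc and spc over eaf6 were separate.

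CML23 (chromosome 1, 24770419 to 24771393, minus strand, 1 exon), the closest relative of CML24, varied least among the members with a steady signal. Its mutant libraries ranged from 91.5 in gcn5 to 389.7 in spc, against 93.5 to 143 in Col-0. Its means were 321 ± 74.8 in spc, 252 ± 27.8 in eaf6, 246 ± 32.4 in spcing1 and 144 ± 15.9 in ada2aspc, against 124 ± 26.6 in Col-0 (SD, n = 3 each). Every neighbour in the order of its 10 means overlapped the next. The libraries lay wholly above Col-0 in ada2b, ada2a, spc, sdrl, eaf6 and spcing1.

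CML39 (chromosome 1, 28765254 to 28765866, minus strand, 1 exon), a gene of seeds and seedling establishment in Arabidopsis, was near the bottom of the scale. It reached 10 in 6 libraries, 3 of them of eaf6, with 1 each of spc, ing1 and sdrl. Its eaf6 libraries read 25.6, 23.2 and 17.8, against 5.73, 0.0571 and 2.12 in Col-0. It was the member whose libraries lay above Col-0 in eaf6 and in no other mutant. All 6 members were tested: TCH3, CML24, CML23 and CML38 reached 10 in all 30 libraries and CML37 in 27.

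**Figure D1:**
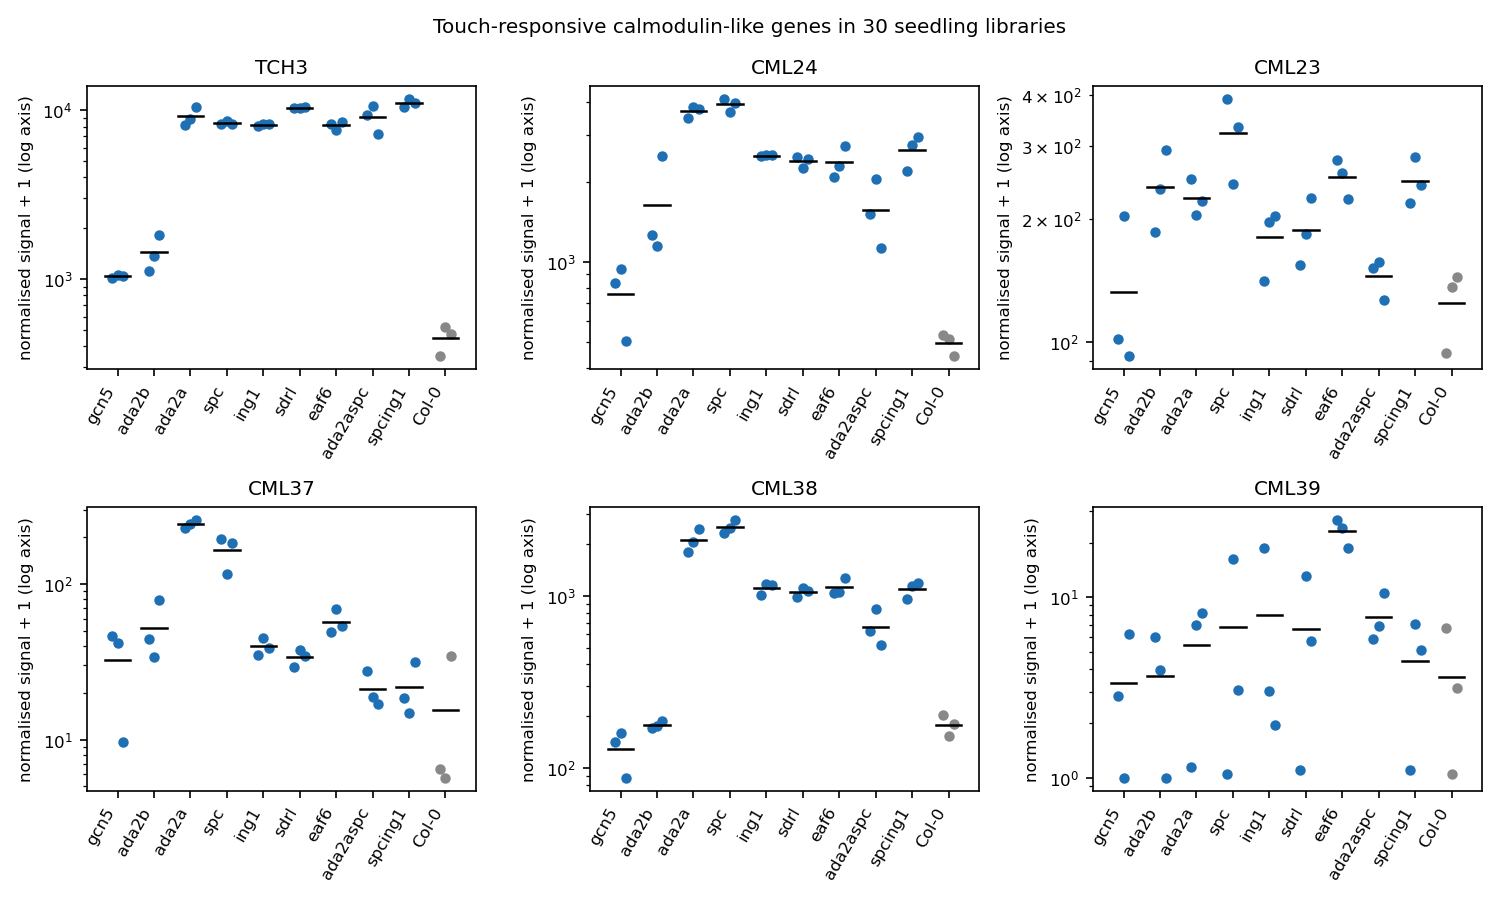
Normalised signal plus 1 on a log axis for each of the 6 genes (panels) in each library (points) by genotype, with the mean as a bar and Col-0 in grey at the right. TCH3 is high in 7 mutants at nearly 1 level, while CML38, CML24 and CML37 are highest in ada2a and spc and lower in ada2aspc.

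Levels of different genes were compared only per kilobase of annotated exon. This length joins the exons of all transcripts, 2548 bases in TCH3, 2008 in CML24 and 993 in CML38. The single transcripts used for the loops have 1252, 910 and 963 bases, so the order of genes depends on the length chosen. In spc TCH3 stood at 3290.1, CML38 at 2547, CML24 at 1952, CML23 at 329, CML37 at 119 and CML39 at 9.45 per kilobase. In Col-0 the order was CML24 at 246, CML38 at 179, TCH3 at 176, CML23 at 127, CML37 at 10.5 and CML39 at 4.30 per kilobase. The SDs of CML38 and TCH3 in Col-0, 24.1 and 35.1, cover the distance between them on the joined length.

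Among the 6 genes, the number whose 3 libraries all lay above all 3 of Col-0 was 6 in eaf6, 5 in ada2a and spc, 4 in ing1, sdrl and spcing1, 3 in ada2b and ada2aspc, and 1 in gcn5. The same was true of 29.7% of all 21868 tested genes in eaf6, 20.6% in ada2a, 24.8% in spc, 23.2% in ing1, 21.1% in sdrl, 24.7% in spcing1, 28.6% in ada2b, 25.8% in ada2aspc and 23.2% in gcn5. Because the genes were selected with these contrasts known, nothing is read from these counts. The median log2 fold change of the 6 was 3.41 in spc, 3.23 in ada2a, 2.53 in eaf6, 2.11 in ing1, 1.96 in sdrl, 1.70 in spcing1, 1.52 in ada2aspc, 1.28 in ada2b and 0.29 in gcn5. The median of all genes lay between -0.05 and 0.01.

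**Figure D2:**
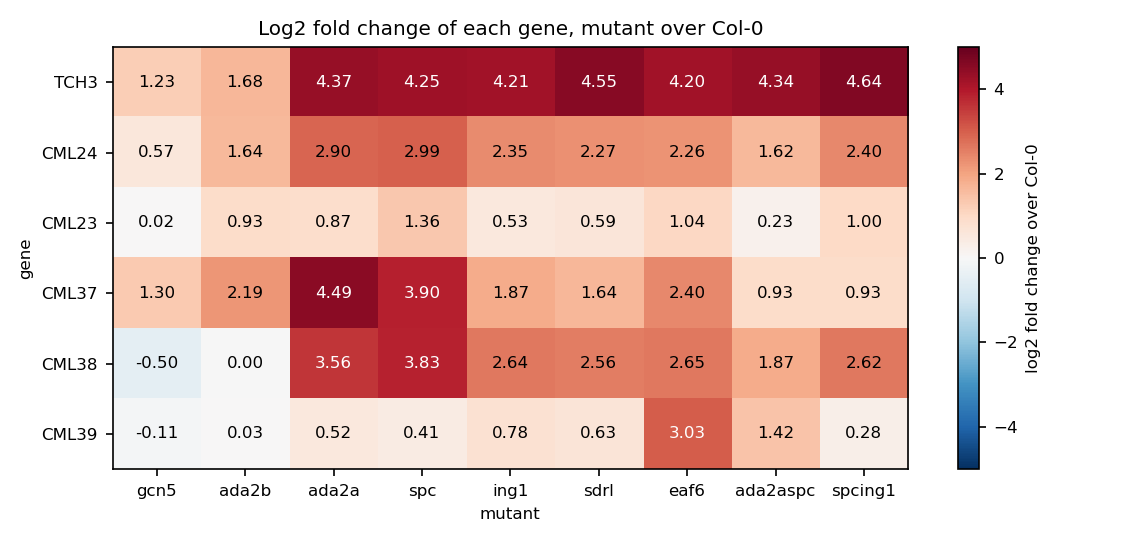
Log2 fold change on the log2(value + 1) scale of each gene (rows) in each mutant over Col-0 (columns), with red above and blue below 0. The row of TCH3 is nearly even from ada2a to spcing1 at 4.20 to 4.64, and the row of CML37 holds 4.49 at ada2a and 0.93 at both double mutants.

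The double mutants show whether a second mutation leaves these genes at the level of the single mutants. In ada2aspc against ada2a, 3 of the 6 genes were lower and TCH3 was not moved detectably. CML38 averaged 661 ± 166 in ada2aspc and 2109.8 ± 322 in ada2a (SD, n = 3 each), a log2 fold change of -1.69 ± 0.17 (SE, limma adjusted p = 2.25e-08). CML37 averaged 20.0 ± 5.62 in ada2aspc and 242 ± 14.6 in ada2a, a log2 fold change of -3.56 ± 0.51 (adjusted p = 1.17e-05), or -2.85 with a pseudocount of 16. CML24 averaged 1568 ± 467 in ada2aspc and 3692 ± 192 in ada2a, a log2 fold change of -1.28 ± 0.21 (adjusted p = 8.4e-05). For these 3 genes, and for CML23, all 3 ada2aspc libraries lay below all 3 of ada2a, as they did for 16.1% of all genes. CML23 missed the threshold at -0.63 ± 0.24 (adjusted p = 0.0713). TCH3 differed by -0.03, with a 95% interval from -0.30 to 0.24 (adjusted p = 0.917), so a change of its level by more than 0.30 on the log2 scale lies outside the interval. Of all genes, 14.7% were called in this contrast.

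Against spc, 4 of the 6 genes were lower in ada2aspc. CML38 averaged 661 ± 166 in ada2aspc and 2529 ± 212 in spc, a log2 fold change of -1.96 ± 0.17 (adjusted p = 1.93e-09). CML37 differed by -2.97 ± 0.51 (adjusted p = 0.000155), or -2.30 with a pseudocount of 16, and CML24 by -1.36 ± 0.21 (adjusted p = 3.86e-05). CML23 averaged 144 ± 15.9 in ada2aspc and 321 ± 74.8 in spc, a log2 fold change of -1.13 ± 0.24 (adjusted p = 0.00143). TCH3 differed by 0.09, with an interval from -0.17 to 0.36 (adjusted p = 0.735). CML39 differed by 1.01, with an interval from -1.22 to 3.24, too wide to read. In this contrast 11.9% of all genes were called in either direction, 1535 of them lower. The third ada2aspc library was the lowest of its group for 5 of the 5 genes other than CML39, and the second the highest for 4. TCH4, a touch-induced cell wall enzyme gene, followed the same order there, at 10119 in the third and 28402 in the second library. It did not do so in every genotype. In ing1 the first library was the lowest for 5 of the 5 genes but the highest for TCH4, at 28031.5. In sdrl the first was the lowest for 3 of the 5 but the highest for TCH4, at 43575.1.

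In spcing1 against spc, CML37 and CML38 were lower. CML37 averaged 20.7 ± 8.72 in spcing1 and 164 ± 42.5 in spc, a log2 fold change of -2.96 ± 0.51 (adjusted p = 0.000212), or -2.29 with a pseudocount of 16. CML38 averaged 1100.1 ± 125 in spcing1 and 2529 ± 212 in spc, a log2 fold change of -1.20 ± 0.17 (adjusted p = 9.3e-06). CML24 differed by -0.58 ± 0.21 (adjusted p = 0.101) and TCH3 by 0.39 ± 0.13 (adjusted p = 0.0667), with all 3 spcing1 libraries below spc for CML24 and above spc for TCH3. Of all genes, 7.06% were called here in either direction, 754 of them lower.

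Against its other parent line ing1, spcing1 had 0 of 6 genes called by limma, with 1 at an unadjusted p below 0.05, and 2.82% of all genes were called. CML38 averaged 1100.1 ± 125 in spcing1 and 1111 ± 89.3 in ing1, a difference of -0.02 with an interval from -0.36 to 0.32. CML24 differed by 0.06, with an interval from -0.38 to 0.49. CML37 differed by -0.94, with an interval from -1.99 to 0.11. TCH3 differed by 0.43, with an interval from 0.16 to 0.70 (adjusted p = 0.0716). Thus CML38 and CML24 stood within these intervals of the ing1 level in spcing1, whereas in ada2aspc they stood below both single mutants.

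**Figure D3:**
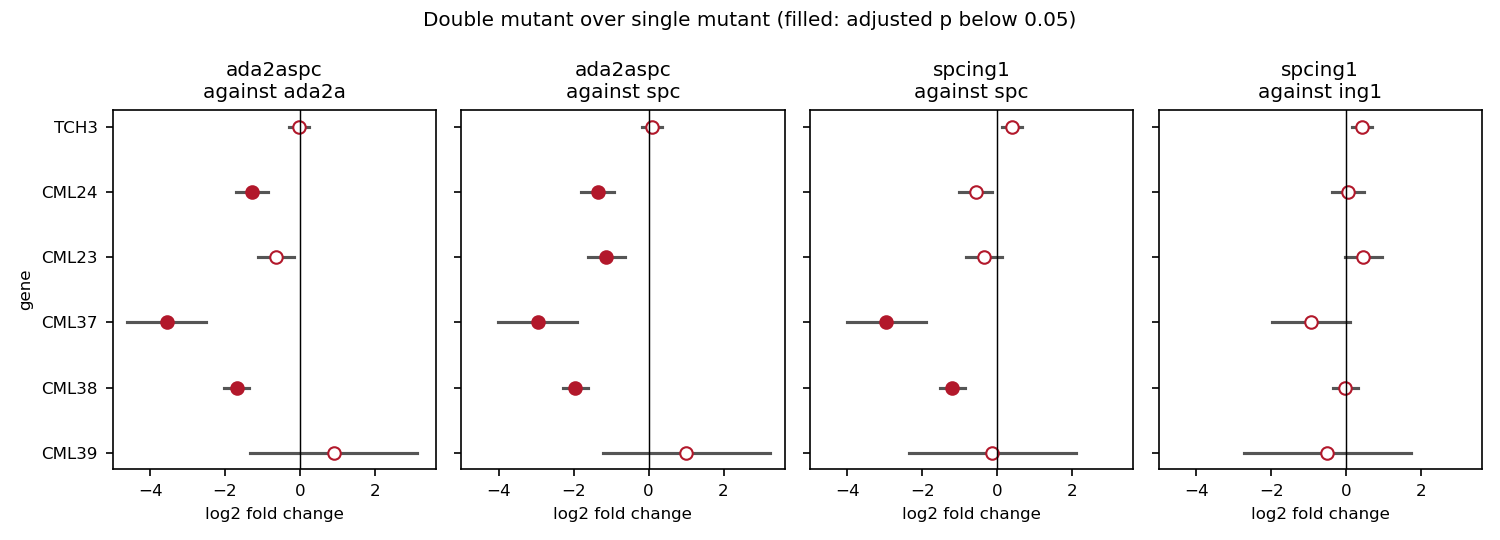
Log2 fold change of each gene in a double mutant over a single mutant, with 95% intervals as lines and filled points where the adjusted p is below 0.05. CML38 and CML37 lie left of 0 in the first 3 panels, at -1.20 to -1.96 and -2.96 to -3.56, and the TCH3 points lie between -0.03 and 0.43.

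Between the double mutants, CML38 was higher in spcing1 than in ada2aspc, at 1100.1 ± 125 in spcing1 and 661 ± 166 in ada2aspc (log2 fold change 0.76 ± 0.17, adjusted p = 0.018). This contrast called 0.896% of all genes in either direction, 149 of them higher. The CML38 call was lost without the filter on low values (adjusted p = 0.0845), in a fit of only these groups (0.116), and without ada2aspc replicate 1 or 3 or spcing1 replicate 2 or 3 (0.0982 to 0.17). CML24 differed by 0.78 ± 0.21 (adjusted p = 0.0748), with all spcing1 libraries above all ada2aspc libraries. It passed without ada2aspc replicate 2 (0.0134) or spcing1 replicate 1 (0.0472).

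Among the single mutants, ing1 was lower than spc for CML38 and CML37. CML38 averaged 1111 ± 89.3 in ing1 and 2529 ± 212 in spc, a log2 fold change of -1.19 ± 0.17 (adjusted p = 5.77e-05). CML37 averaged 38.7 ± 5.11 in ing1 and 164 ± 42.5 in spc, a log2 fold change of -2.02 ± 0.51 (adjusted p = 0.0277). The CML37 call was lost without the filter (0.0945) and without any of the 3 ing1 libraries or spc replicate 1 or 3 (0.0688 to 0.106). For 5 of the 6 genes, CML39 being the exception, all 3 ing1 libraries lay below all 3 of spc, as did those of 11.6% of all genes. For TCH3 the gap was narrow, from 8249.9 in ing1 to 8269.8 in spc, and its log2 fold change was -0.04 ± 0.13 (limma adjusted p = 0.937). In this contrast 2.38% of all genes were called in either direction, 321 of them lower. CML23 differed by -0.83 ± 0.24 (adjusted p = 0.0565, and 0.0399 without spc replicate 2).

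The spc and ada2a mutants had 0 of 6 genes called by limma between them, with 1 at an unadjusted p below 0.05, and 0.654% of all genes were called. CML38 differed by 0.27 in spc over ada2a, with an interval from -0.07 to 0.61, and CML24 by 0.09, from -0.35 to 0.52. CML37 averaged 164 ± 42.5 in spc and 242 ± 14.6 in ada2a, with all spc libraries below ada2a and a log2 fold change of -0.60 ± 0.51 (adjusted p = 0.713).

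The sdrl mutant was set against the mean of ada2a, spc and ing1. CML38 was lower at -0.78 ± 0.13 (adjusted p = 0.000216) and CML37 at -1.78 ± 0.42 (adjusted p = 0.00547) on the log2 scale, although the sdrl libraries overlapped those of ing1 for both genes. This contrast called 8.85% of all genes in either direction, 1117 of them lower. TCH3 differed by 0.27 ± 0.11 (adjusted p = 0.118). CML24 differed by -0.47 ± 0.17 (adjusted p = 0.0902). All its sdrl libraries lay below all those of ada2a, spc and ing1, by a narrow gap from 2481 in sdrl to 2497 in ing1.

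The eaf6 mutant, set against the mean of ada2a, spc, ing1 and sdrl, gave the 1 call of CML39. It averaged 22.2 ± 3.98 in eaf6, against 4.43 ± 3.76 in ada2a, 5.79 ± 8.26 in spc, 6.92 ± 9.40 in ing1 and 5.65 ± 6.07 in sdrl. The log2 fold change was 2.44 ± 0.86 (adjusted p = 0.0202), 0.86 with a pseudocount of 16, and the call was lost without eaf6 replicate 1 (0.0733) or 2 (0.0692). CML38 was lower than that mean at -0.49 ± 0.13 (adjusted p = 0.00255), although the eaf6 libraries overlapped those of ing1 and sdrl, and its mean of 1122.5 ± 126 in eaf6 was above those of 1111 ± 89.3 in ing1 and 1052 ± 66.4 in sdrl. The background of this contrast is wide, with 48.1% of all genes called, 5102 higher and 5419 lower.

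The ada2b and gcn5 mutants, in which TCH3 and CML38 stood lowest among the mutants, also differed from each other. CML24 averaged 1641 ± 760.4 in ada2b and 759.6 ± 230.2 in gcn5, a log2 fold change of 1.07 ± 0.21 (adjusted p = 0.000173). CML23 averaged 237 ± 54.2 in ada2b and 132 ± 61.4 in gcn5, a log2 fold change of 0.91 ± 0.24 (adjusted p = 0.00256). TCH3 averaged 1440.2 ± 356 in ada2b and 1038 ± 27.3 in gcn5, a log2 fold change of 0.44 ± 0.13 (adjusted p = 0.0075). CML38 differed by 0.50 ± 0.17 (adjusted p = 0.0156). Of all genes, 42.1% were called in either direction between ada2b and gcn5, 4278 of them higher in ada2b. All 4 calls were lost in a fit of these 2 groups alone (0.0528 to 0.148). TCH3 was also lost without ada2b replicate 3 (0.108), and CML38 without ada2b replicate 3 (0.05) or gcn5 replicate 3 (0.216). The third ada2b library was the highest of its group for 5 of the 5 genes other than CML39, and TCH4 read 1739.6 there against 712 and 749 in the other ada2b libraries.

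The pattern of each gene over the 9 mutants was set beside those of 9264 tested genes with a symbol, by the root mean square difference of the log2 fold changes over Col-0. These contrasts share the Col-0 libraries. The nearest gene to TCH3 was DREB26, an AP2-type transcription factor gene, at 0.378. The nearest to CML24 was RAV2, another AP2-domain transcription factor gene, at 0.273, and to CML23 the zinc finger gene ZF2 at 0.245. CML37 was nearest to WRKY33, a WRKY transcription factor gene of pathogen responses, at 0.646, and CML38 to RAS1 at 0.396. Leaving out the third Col-0 library moved the CML37 values by more than that distance, from 4.49 to 5.33 in ada2a and 0.93 to 1.77 in ada2aspc. Its match was not recomputed without that library. CML39 was nearest to the bZIP gene AT1G68880 at 0.397, on values near the bottom of the scale with an SE of 1.09. Among the 6 themselves the closest pair was CML24 with CML38, at 0.776, and TCH3 lay farthest from CML23, at 3.20. Many other genes lay nearer to each member than its nearest fellow member did. That fellow member ranked 30 for CML37, 47 for CML38, 99 for TCH3, 146 for CML24, 1760 for CML39 and 9917 for CML23 among all tested genes.

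The sequence just upstream of the annotated start was read for motifs known from plant stress and calcium responses, on both strands. These were the core CGCG of CAMTA sites, the GCC box GCCGCC, the G-box CACGTG and the W-box core TTGAC. CML24 and CML23 each held 2 matches of CGCG in their 250 bases, and the other 4 genes held 0. The GCC box and the G-box had 0 matches in all 6 windows. The W-box core had 1 match each in TCH3, CML23 and CML38, and 0 in CML24, CML37 and CML39. The windows of CML24 and CML23 are shown because both hold CGCG, with the CGCG core in capitals, and in CML23 also a W-box core of the other strand, which reads GTCAA here. They run 5′ to 3′ on the minus strand of TAIR10.1, at chr5:14999620-14999869 for CML24 and chr1:24771394-24771643 for CML23.
CML24: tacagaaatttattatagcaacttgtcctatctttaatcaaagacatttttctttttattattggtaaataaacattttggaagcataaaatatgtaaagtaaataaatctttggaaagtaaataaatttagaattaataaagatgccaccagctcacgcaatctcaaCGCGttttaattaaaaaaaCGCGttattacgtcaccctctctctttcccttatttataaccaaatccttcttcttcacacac
CML23: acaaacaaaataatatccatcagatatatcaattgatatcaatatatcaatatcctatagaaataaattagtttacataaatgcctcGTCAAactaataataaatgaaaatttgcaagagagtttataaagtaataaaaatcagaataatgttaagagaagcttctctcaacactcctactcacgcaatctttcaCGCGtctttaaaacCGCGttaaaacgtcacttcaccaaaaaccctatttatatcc
Of 27443 windows of the same length before protein-coding genes, 10.4% held the CGCG core, 1.88% the GCC box, 6.54% the G-box and 44.7% the W-box core. A match describes letters and is not a site. The windows of TCH3 and CML38 overlap longer annotated transcripts of the same genes and are not printed.

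TCH3, CML24 and CML23 each lie beside a calmodulin gene. TCH3 is followed by CAM2 and preceded, at 37 bases, by the EF-hand gene AT2G41090. CML24 lies 4846 bases from CAM1, CML23 2719 bases from CAM4, and CML38 883 bases from CML39. The 2 genes that overlap TCH3 and CML24 on the other strand, AT2G41105 and AT5G37760, were listed at 0 or at a mean below 1 in every genotype. CAM2 averaged 567 ± 20.6 in eaf6 and 503 ± 38.4 in ada2aspc, against 241 ± 23.9 in Col-0. Its log2 fold change was 0.76 to 1.23 in the 7 mutants with high TCH3, all called (adjusted p 8.05e-09 to 5.65e-05), and 0.30 in gcn5 (adjusted p = 0.0711) and 0.09 in ada2b (0.58), not called. CAM3, which adjoins none of the 6, was called higher in the same 7 by 0.43 to 0.70. CAM1 was called higher in 8 mutants, by 0.18 to 0.34, and CAM4 in gcn5, spc and ada2aspc, by 0.16 to 0.18. AT2G41090, at 11009 ± 2442 in Col-0, was lower in ada2b at -1.41 ± 0.25 (adjusted p = 3.18e-05) and higher in spc by 0.65 ± 0.25 (adjusted p = 0.0423) and in ada2aspc by 0.62 ± 0.25 (adjusted p = 0.0478). In each of the 9 mutants the log2 fold changes of CAM2 and AT2G41090 were below that of TCH3. Nothing is read from this, since TCH3 was chosen with these contrasts known. Its percentile among all tested genes was 96.7 in gcn5 and higher in the other mutants.

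**Figure D4:**
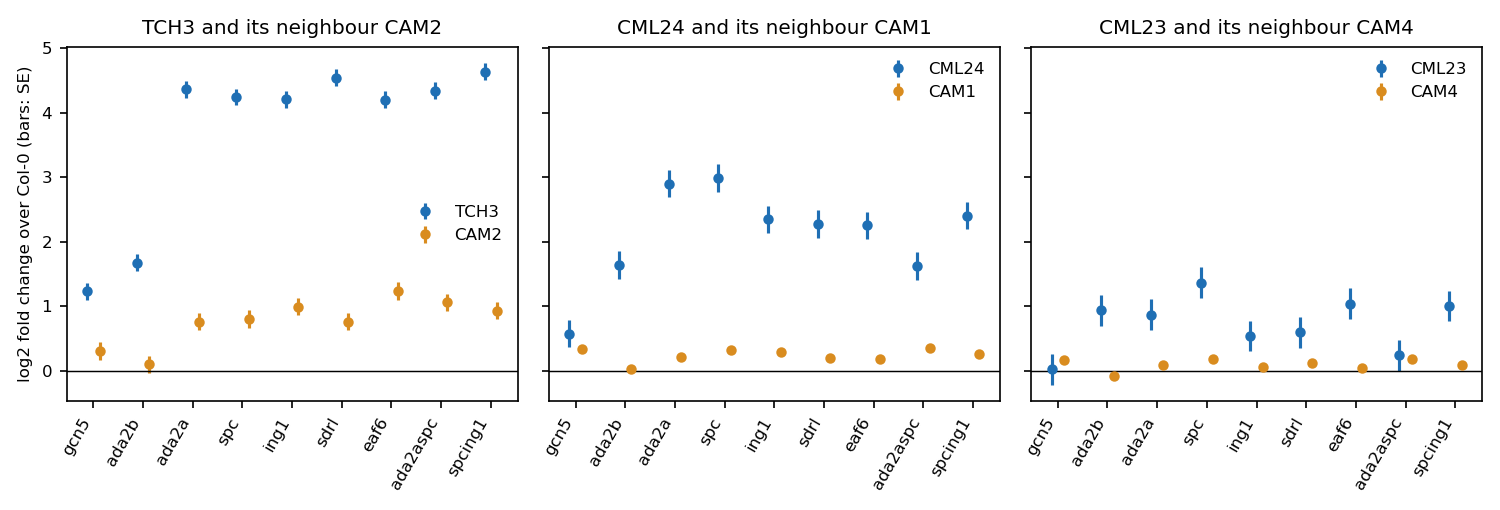
Log2 fold change over Col-0 (points, with SE bars) of TCH3, CML24 and CML23, in blue, and of the calmodulin gene nearest to each, in orange, by mutant. CAM2 reaches 1.23 where TCH3 stands at 4.20 (eaf6), and CAM1 and CAM4 stay at or below 0.34.

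The rest of the calcium-sensing genes were taken from lists by family, chosen with earlier results of these data known. Of the 7 calmodulins, limma called higher 6 in ada2aspc, 5 in spc and eaf6, 4 in sdrl and spcing1, 3 in ada2a and ing1, and 2 in gcn5, and CAM5 alone was called lower in ada2b, at -0.22 ± 0.08 (adjusted p = 0.0174), where division by column totals left 0 lower. Of the 31 tested among 44 other calmodulin-like genes, 20 were called higher in eaf6, 17 in ada2aspc, 16 in spc, ing1 and spcing1, 15 in sdrl, 14 in ada2a, 11 in gcn5 and 10 in ada2b. Lower calls numbered 7 in ada2b, 4 in gcn5, 3 in sdrl and 1 each in spc, ing1 and eaf6. Of all tested genes, the share called higher and the share called lower were 25.2% and 25.9% in eaf6, 21.7% and 22.8% in ada2aspc, 20.3% and 19.7% in spc, and 17.5% and 18.2% in ing1. They were 20.9% and 23.9% in spcing1, 17.0% and 18.9% in sdrl, 15.1% and 14.5% in ada2a, 18.2% and 24.5% in gcn5, and 23.5% and 28.1% in ada2b. The median log2 fold change of the other calmodulin-like genes was 0.59 in eaf6, 0.58 in ada2aspc and 0.28 to 0.42 in gcn5, ada2a, spc, ing1, sdrl and spcing1. In ada2b it was -0.09, or 0.18 when the values are divided by column totals, and that of the calmodulins was -0.03, or 0.23.

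The choice of scaling moved the balance of calls. With division by column totals, the share of calls that were higher was 68.6% in gcn5 (42.57% otherwise), 69.75% in ada2b (45.55%), 34.9% in ada2a (51.02%), 36.91% in spc (50.76%), 38.1% in ing1 (48.97%), 35.27% in sdrl (47.37%), 37.95% in ada2aspc (48.76%) and 33.78% in spcing1 (46.67%). The median log2 fold change of all genes then stood at 0.174 in gcn5 and 0.274 in ada2b, and between -0.147 and -0.102 in ada2a, spc, sdrl, ada2aspc and spcing1. In the contrasts between mutants the share was 48.85% in spcing1 against ing1 (63.21%), 56.65% in ada2b against gcn5 (46.43%) and 67.26% in eaf6 against the mean of 4 mutants (48.49%), where the median of all genes stood at 0.127. With division by column totals, 7691 of all tested genes were called higher in gcn5 and 10099 in ada2b, against 3973 and 5142 otherwise. In the other mutants the higher calls numbered 2630 (ada2a) to 5904 (eaf6), and lower calls in all mutants 3520 (gcn5) to 7021 (spcing1). These are the background of the list counts with column totals, here and below. The calmodulins called higher against Col-0 were then 7 in gcn5, 5 in ada2b, eaf6 and ada2aspc, 3 in spc, ing1 and spcing1, and 2 in ada2a and sdrl. With median ratios they were 5 in gcn5 and spcing1, and the counts of the other mutants did not move. The other calmodulin-like genes called higher ranged between 12 (ing1) and 21 (eaf6) with column totals, with 15 in gcn5 and 13 in ada2b.

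Among the other calmodulin-like genes, AT3G25600, AT2G41410, AT3G10190 and AT1G18210, all annotated as EF-hand proteins, were called higher in 9 of 9 mutants. AT3G25600 had log2 fold changes of 2.70 ± 0.14 in spc (adjusted p = 2.55e-15), 2.54 ± 0.14 in ada2a (adjusted p = 1.11e-14), 1.62 ± 0.14 in ada2aspc (adjusted p = 1.3e-10) and 0.73 ± 0.14 in gcn5 (adjusted p = 0.00011). AT2G41410 rose by 1.40 to 1.79 in the 7 mutants with high TCH3, and by 0.46 in ada2b and 0.51 in gcn5. In ada2aspc against ada2a, AT3G25600 was lower at -0.92 ± 0.14 (adjusted p = 2.93e-05), MSS3 at -0.65 ± 0.11 (adjusted p = 0.000137) and AT3G29000 at -1.87 ± 0.30 (adjusted p = 4.81e-05). These genes, named after their values were seen, are EF-hand genes too. The same 3 were the lower calls of this list against spc in ada2aspc and in spcing1, at -0.44 to -2.52. Higher calls of the list against spc were 3 in ada2aspc and 0 in spcing1. In each of the 3 contrasts the lower calls were 9.68% of the 31 tested genes. Of all genes, 14.7% were called in ada2aspc against ada2a, with 46.03% of those calls higher. Against spc these shares were 11.9% and 41.05% in ada2aspc, and 7.06% and 51.13% in spcing1. Nothing is read from these counts, since the genes were named after their values were seen. In ada2aspc against ada2a, 4 others of the list were higher, namely CML41 by 1.15 ± 0.31 (adjusted p = 0.0111), and CML42, AT1G62820 and AT5G04170 by 0.22 to 0.42.

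**Figure D5:**
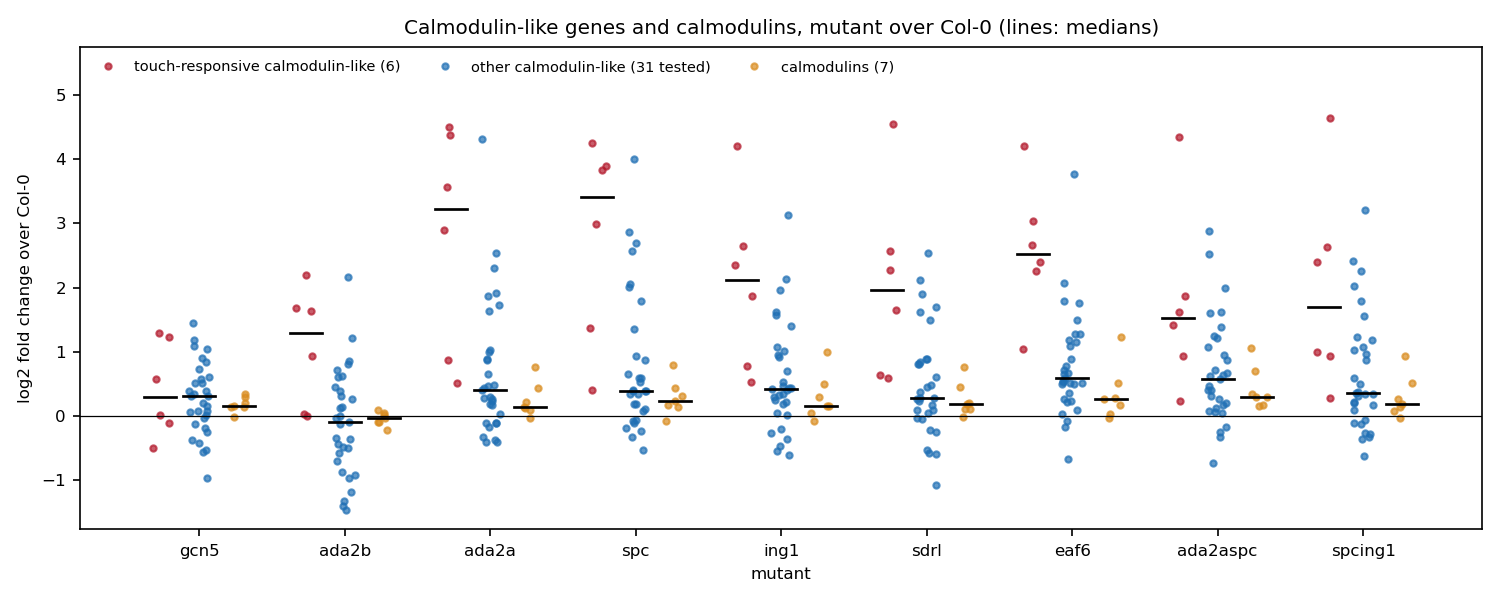
Log2 fold change over Col-0 of the 6 touch-responsive genes (red), 31 other calmodulin-like genes (blue) and 7 calmodulins (orange) in each mutant, with medians as bars. The red medians lie between 0.29 (gcn5) and 3.41 (spc), and the calmodulins lie between -0.22 and 1.23.

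Other gene families of calcium signalling held both higher and lower calls. Among 30 tested calcium-dependent protein kinases, 6 (gcn5) to 14 (sdrl, ada2aspc) were called higher and 2 (ing1) to 8 (gcn5) lower. With division by column totals, 16 were higher and 5 lower in gcn5, 19 higher and 2 lower in ada2b, and 8 (ada2a) to 13 (eaf6) higher in the other mutants. Of all genes, 7691 were then called higher in gcn5 and 10099 in ada2b, against 3973 and 5142 otherwise. CPK28, a kinase that limits immune signalling in Arabidopsis, rose by 2.21 to 2.68 in the 7 mutants with high TCH3 and by 0.78 ± 0.12 in ada2b (adjusted p = 3.47e-06). CPK32 rose in 8 mutants, by 1.18 to 2.52, and CPK4 in 8, by 0.47 to 0.97. CPK33 fell in 8 mutants, at -0.66 to -1.50. Of 10 calcium pumps of the ACA family, 6 were called higher in eaf6 and ada2aspc, 5 in spc, ing1, sdrl and spcing1, 4 in gcn5 and ada2a, and 2 in ada2b. Lower calls were 2 in gcn5 and ada2b and 1 in ing1, sdrl and spcing1. With division by column totals, 8 were higher in eaf6, 4 in ada2b with 2 lower, and 4 in gcn5 with 0 lower. ACA1 rose in all 9, by 0.64 in gcn5 to 2.22 in ada2a. ACA11, ACA10 and ACA4 were each called higher in 7 or 8 mutants, and ACA4 lower in gcn5 at -0.33 ± 0.09 (adjusted p = 0.00501).

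Of the 9 tested CBL sensors, which pair with CIPK kinases, CBL1 rose in 8 mutants by 0.46 to 1.29. CBL2 fell in 5, at -0.24 to -0.61, CBL10 in 4, at -0.27 to -0.52, and CBL8 fell, at -2.41 ± 0.29 in ada2b (adjusted p = 3.6e-08) but was called higher in ing1 and eaf6, by 0.74 in each. Of the 6 CAMTA factors, which bind calmodulin and the CGCG core, 4 were called higher in spc, 1 in gcn5 and 3 in each other mutant. With division by column totals these were 4 in gcn5 and ada2b, 2 in ada2aspc and 3 in each other mutant. SR1 (CAMTA3) rose in 8 mutants, by 0.31 in ada2b to 0.99 in spcing1, and AT1G67310 in all 9 by 0.15 to 0.51. In eaf6 3 were called higher and 3 lower, among them AT3G16940 at -0.57 ± 0.06 (adjusted p = 1.79e-08).

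Of 13 tested genes for mechanosensitive channels, which admit ions when a membrane is stretched, 3 to 8 were called lower in each mutant and 1 to 3 higher. With division by column totals, 5 to 7 were lower and 1 to 3 higher. MSL5 fell in 8 mutants, at -0.29 in spc to -1.43 in gcn5, MSL4 in 7 at -0.43 to -0.55, and the piezo-type gene AT2G48060 in 8 at -0.47 to -0.69. MCA2, another gene of this list, was called higher in the 7 mutants with high TCH3, by 0.33 in eaf6 to 1.07 in spcing1. It was lower in gcn5 at -0.53 ± 0.13 (adjusted p = 0.00113) and in ada2b at -0.85 ± 0.13 (adjusted p = 1.75e-06).

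Readouts outside these families also differed from Col-0. TCH4 averaged 16518 to 44138 in the 7 mutants with high TCH3, 400.2 ± 78.3 in gcn5 and 1067 ± 583 in ada2b, against 593 ± 42.9 in Col-0. The morning clock gene CCA1 averaged 22.1 to 297 in the mutants, against 1462 ± 497 in Col-0, and PRR9 25.4 to 121 in the mutants, against 588 ± 109 in Col-0. LHY averaged 26.2 to 44.3 in the mutants, against 109 ± 35.3 in Col-0. The summed level of the 5 shoot markers was 184130 to 233015 in ada2b, 256294 to 276587 in gcn5 and 379036 to 508546 in the other mutants, against 577344 to 644542 in Col-0. That of the 7 root markers was 5068 to 6582 in ada2b, 4495 to 5174 in gcn5, 4416 to 5056 in eaf6 and 3301 to 4184 in spcing1, against 4839 to 5518 in Col-0. It was 3751 to 4797 in the other 5 mutants, below all Col-0 libraries as in spcing1. Of the 7 root markers, 4 were called higher in ada2b and 3 in gcn5, with 1 lower in each, while 5 were called lower in spcing1, 4 in ada2a, 3 in ada2aspc and 2 in spc, ing1 and sdrl. Of all genes, 23.5% were called higher in ada2b and 18.2% in gcn5. Lower calls were 23.9% in spcing1, 14.5% in ada2a, 22.8% in ada2aspc, 19.7% in spc, 18.2% in ing1 and 18.9% in sdrl. The root sum leans on IRT1, a root iron transporter gene, which averaged 186 ± 59.4 in ada2b, against 1899.7 ± 426 in Col-0. Of the 5 shoot markers, LHCB2.1, GLK1 and LHCB1.1 were called lower in 9 mutants, PSAD-1 in 4 and RBCS1A in 3. The part of handling, hour of harvest and tissue make-up in these levels was not tested.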

How the data were processed

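Messenger RNA of 12-day-old seedlings was extracted with TRIzol and sequenced as paired-end reads of 150 bases, per the labels' protocols. The submitters' processing notes name bcl2fastq, HISAT2, edgeR and TAIR10, without versions. The strand setting of library and counting was not stated in labels or headers. The authors deposited 1 table of a normalised signal per gene, whose values are not whole numbers, so a count test was not used, although one had been planned for counts. limma 3.58.1 in R 4.3.3 was fitted to log2(value + 1) with a variance trend. All 30 libraries entered 1 fit with 20 residual degrees of freedom, over 21868 genes that reached 10 in 3 or more libraries. P-values were adjusted by Benjamini-Hochberg over all of these. Adding 1 shrinks the fold changes of low genes. A difference of mean logs can still exceed the ratio of means where libraries are uneven. For CML37 against Col-0 it did so in every mutant. The number of libraries, 3 per group, limits the precision, since the read counts behind the values are unknown. No 2 libraries held identical values.

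There were 9 contrasts with Col-0 and 10 between mutants. In the first, the 6 genes are described and other gene lists tested. Members and lists were chosen with earlier results of these data known. From each list the text names up to 4 genes called in 1 direction in the most mutants. Beyond these it names mutated genes, chromosome neighbours, TCH4 and clock genes, the nearest pattern of each member, and a few genes after their values were seen. Alternatives were scaling by median ratios or column totals, a pseudocount of 16, no filter, a fit of only the groups compared, a replicate block, and leaving out each library. The fit was tested on simulated data. Annotation and sequences are those of RefSeq for TAIR10.1, in which all 6 genes matched, and Biopython 1.88 aligned coding sequences.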

Additional observations from a re-analysis of the deposited data

How the results depend on the processing

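Of the log2 fold changes of the 6 genes between mutants, 742 of the recomputed values kept direction and side of the threshold, 21 lost a call, 15 gained one and 32 changed sign. For the descriptions against Col-0, 570 moved by less than the replicate spread and 78 by more. Called genes in spcing1 against ada2aspc numbered 196, with 97 without a filter and 34 in a fit of only these groups. They numbered 143 in spc against ada2a, with 57 in a fit of only these groups. Leaving out 1 library gave 61 to 320 for spcing1 against ada2aspc (320 without ada2aspc replicate 2, and 61, 65, 68 and 109 without ada2aspc 3, spcing1 2, ada2aspc 1 and spcing1 3). It gave 45 to 154 for spc against ada2a (45, 53, 65 and 76 without ada2a 2, ada2a 1, spc 3 and spc 1). It gave 228 to 760 for spcing1 against ing1, where 617 were called (228, 232, 247 and 342 without spcing1 2, ing1 3, ing1 2 and spcing1 3). It gave 253 to 382 for ing1 against spc, where 521 were called (253, 287, 288 and 314 without ing1 2, ing1 3, spc 2 and spc 3). It gave 1195 to 1915 for sdrl against the mean of ada2a, spc and ing1, where 1935 were called (1195 and 1246 without sdrl 2 and 3).

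Sign changes fell on small or noisy values. Leaving out 1 library gave TCH3 a log2 fold change of -0.15 to 0.12 in ada2aspc against ada2a and -0.03 to 0.25 against spc. In spcing1 against ing1 it gave CML24 -0.04 to 0.18 and CML38 -0.09 to 0.08. CML37 in spcing1 against ada2aspc ran from -0.30 to 0.24, and was -0.02 with column totals. CML39 ran from -0.005 to 1.41 in ada2aspc against ada2a, -1.05 to 0.93 in spcing1 against spc, -1.14 to 0.49 in spcing1 against ing1 and -0.55 to 0.90 in ada2b against gcn5. It ran from -1.17 to 0.81 in spc against ada2a (0.05 with a pseudocount of 16), -0.62 to 1.43 in ing1 against spc and -0.73 to 1.06 in sdrl against the mean of ada2a, spc and ing1. The causes were not tested. A fit of only the groups compared also gained calls that the full fit missed. They were CML23 in ada2aspc against ada2a (limma adjusted p = 0.0303), TCH3 and CML24 in spcing1 against spc (0.00406 and 0.00483), TCH3 in spcing1 against ing1 (0.0028), and CML24 and CML23 in ing1 against spc (0.000107 and 0.0413). They were also TCH3 and CML24 for sdrl (0.00377 and 6.82e-06) and TCH3, CML24 and CML37 for eaf6 (0.0439, 5.03e-05 and 0.0154).

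Same-numbered libraries did not deviate together: over 135 pairs the correlation of deviations ran from -0.111 to 0.0870, so no pairing by number was detected. A pairing with small effects, or with effects on few genes, would not show in these correlations. With the replicate block, 3100 genes were called in ada2aspc against ada2a, 2556 in ada2aspc against spc, 1494 in spcing1 against spc, 570 in spcing1 against ing1, 179 in spcing1 against ada2aspc, 9128 in ada2b against gcn5, 131 in spc against ada2a, 496 in ing1 against spc, 1878 for sdrl and 10461 for eaf6, and no call of the 6 genes changed. CML39 and CML37 lie near the low end of the scale, where the values limit precision.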
